A study of Mus musculus with 6 samples.

Results

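The non-collagen matrix and matrix remodelling genes of the tibialis anterior (TA) muscle were chosen by name. The list holds 37 genes in 7 roles, namely 8 adhesive and matricellular glycoproteins, 4 lysyl oxidases, 7 proteoglycans, 7 elastic fibre genes, 6 proteases and procollagen processing genes, 3 metalloproteinase inhibitors and 2 nidogens. Of 29747 genes with at least 1 count, 17222 were abundant enough to be tested, and all 37 members were among them. No gene at all passed the planned test, and so no member did. A higher fitted level in AAV-RBM20 than in AAV-GFP muscle was seen for 35 of 37 members, against 51.3% of all genes tested. That number and the size of the difference varied with the libraries left out.

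RNA-seq was performed on 6 samples of TA muscle from C57BL/6 mice of genotype HSA-MCM-Bmal1-/-, called iMSBmal1-/- here. All carried, per the labels, a deletion of Bmal1, a core gene of the circadian clock, made by a tamoxifen-inducible Cre under the human skeletal actin (HSA) promoter, so the recombination was directed to muscle fibres and not to fibroblasts or other cells that make much of the matrix. Mice of 12 to 16 weeks were given tamoxifen, 2 mg daily on 5 days, an adeno-associated virus (AAV) was injected into the TA 4 weeks later, and muscle was taken 4 weeks after the virus, 8 weeks after recombination. AAV-GFP (n = 3) received a virus carrying green fluorescent protein, and AAV-RBM20 (n = 3) one carrying mouse Rbm20, an RNA-binding protein that regulates titin splicing. Per the study's methods all mice were male and the RBM20 virus was given at a higher dose, so transgene and virus dose cannot be told apart. No sample without the Bmal1 deletion and no uninjected muscle was compared here. The labels do not say that samples of a group came from separate mice, so a p-value measures the spread between these samples only. The study's blot lanes list some mouse numbers under both viruses, on opposite sides. Samples of different groups could therefore also share mice, which is not stated for the sequenced samples. The planned test treats all 6 samples as separate.

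The extracellular matrix of muscle is a network around fibres and fibre bundles. Adhesive glycoproteins such as fibronectin link cells to it, small leucine-rich proteoglycans bind collagen fibrils and set their spacing, fibrillin microfibrils carry elastin and store growth factors, and nidogens join the laminin and collagen networks of the basement membrane. Lysyl oxidases crosslink collagen and elastin, metalloproteinases of the MMP and ADAMTS families cut matrix proteins, and TIMPs inhibit them. In muscle most of these proteins come from fibroblasts and their progenitors, while tendon cells add fibromodulin, thrombospondin 4 and tenascin C.

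Total counts were 41400132 to 54226618 per library. Rbm20 measured 170, 165 and 164 CPM (counts scaled to a common library size with TMM factors) in AAV-GFP 1 to 3 and 499, 545 and 406 CPM in AAV-RBM20 1 to 3, with no overlap between the groups. The log2 fold change of 1.54 ± 0.15 (SE) had an edgeR adjusted p of 0.121. Bmal1, listed as Arntl, measured 31.0, 36.0 and 38.1 CPM against 24.5, 27.6 and 26.9 CPM, also without overlap, at a log2 fold change of -0.41 ± 0.13 (edgeR adjusted p = 0.618). The deletion itself could not be checked from these values, since all libraries carry it. Myofibre markers were high in every library, from 56542 to 96812 CPM summed over 8 genes. The libraries numbered 3 stood apart in both groups. Titin took 4.48% of counts in AAV-GFP 3 and 9.05% in AAV-RBM20 3 against 16.9% to 17.8% in the other 4, and mitochondrial genes took 12.5% and 11.4% against 6.41% to 7.66%. The members are therefore also given without these libraries.

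Across the 37 members the fitted difference was mostly positive and small. The median log2 fold change was 0.34, from -0.27 to 1.73, whereas the median of all genes tested was 0.01. Positive values were seen for 94.6% of members and 51.3% of all genes, and the 2 negative members were Mmp3 and Timp3. The same number, 35, was positive with DESeq2 size factors in place of TMM. The SE was larger than the fold change itself for 15 members. At an adjusted p under 0.05, edgeR called 0 of 37 members and 0% of all genes. At an unadjusted p under 0.05, 3 members (Mfap4, Mmp14 and Timp1, 8.11%) were higher in AAV-RBM20 against 4.08% of all genes, and 0 were lower against 3.82%. DESeq2 at an adjusted p under 0.05 called 1 member, Mfap4 (2.7%), and 0.435% of all genes. CPM ranges of the groups did not overlap for 4 members, Sparc, Fbln2, Mfap4 and Timp1, all above AAV-GFP (10.8% of members and 7.71% of all genes), and for 0 members below (9.04% of all genes). These counts of single members are low, and the members are not independent of each other.

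**Figure D1:**
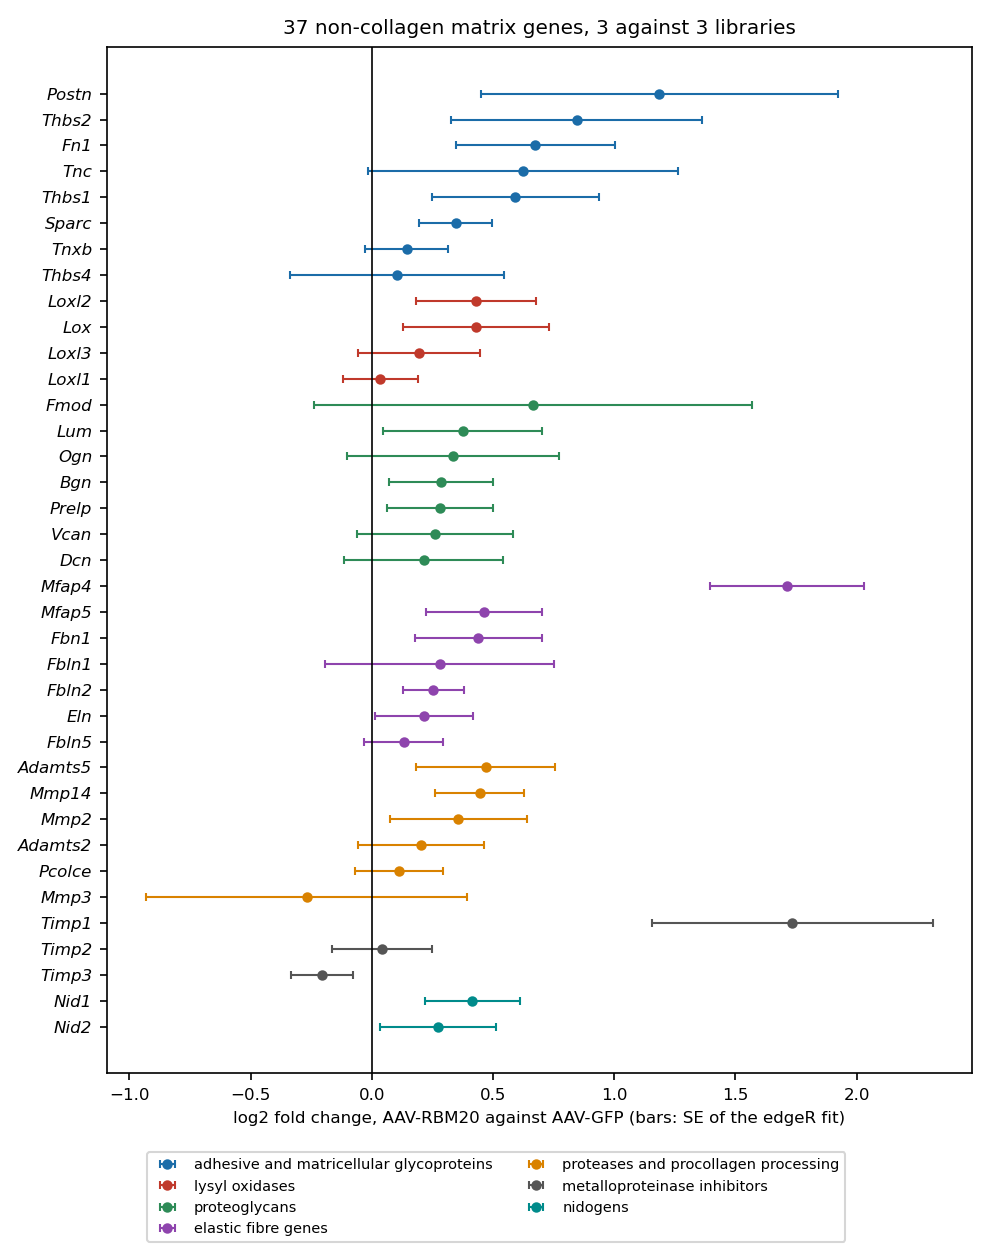
Log2 fold change of each of the 37 members, AAV-RBM20 against AAV-GFP, with its SE from the edgeR fit (n = 3 per group), grouped and coloured by role. Points lie right of 0 for 35 members, Mfap4 and Timp1 lie farthest right, and Mmp3 and Timp3 lie left of 0.

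Deviations from the group means correlated over genes at 0.42, 0.20 and 0.48 between libraries with the same replicate number. The replicate number was therefore also fitted as a block. AAV-GFP 2 correlated slightly more with AAV-RBM20 1 (0.22) than with AAV-RBM20 2 (0.20), so these values do not settle how numbers 1 and 2 pair. The labels do not say what libraries of equal number share. Blocking called 0 members at an adjusted p under 0.05, with a smallest value of 0.0893 for Mfap4, and 0.145% of all genes. Under the block 15 members (40.5%) were higher at an unadjusted p under 0.05 against 8.92% of all genes. Only Timp3 (2.7%) was lower, against 9.92% of all genes. The median of the members was 0.35 with the block, with 33 of 37 positive. The pairs were unequal: 35 members were higher in AAV-RBM20 1 than in AAV-GFP 1, 27 in pair 2 and 21 in pair 3, with median log2 ratios of 0.58, 0.40 and 0.03. For all genes the shares higher were 51.2%, 49.9% and 49.8%. A member was higher in every pair in 12 cases and lower in every pair in 1, Timp3.

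Leaving out both libraries numbered 3 gave 14 members called by edgeR at an adjusted p under 0.05 (37.8%), against 4% of all genes, 337 higher and 353 lower. All 14 were higher in AAV-RBM20. They were Tnxb and Sparc among the glycoproteins, Dcn, Lum and Vcan among the proteoglycans, Fbn1, Fbln2, Mfap4 and Mfap5 among the elastic fibre genes, Mmp14, Adamts2 and Adamts5 among the proteases, and both nidogens. In those 4 libraries 32 of 37 members were positive, with a median of 0.43 against 0.01 for all genes. The libraries to leave out were chosen with these data known. AAV-GFP 3 held the highest AAV-GFP value for most members, so these calls depend on that choice and are not a separate test. Only the libraries numbered 1 and 2 of each group were left. The same limits hold for every value given below without the libraries numbered 3.

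AAV-GFP 3 held the highest AAV-GFP value for 28 of 37 members, and the lowest of all 6 values was in AAV-GFP 1 for 13 members and in AAV-GFP 2 for 16. The highest of all 6 values was in AAV-RBM20 3 for 14 members, in AAV-RBM20 1 for 11 and in AAV-GFP 3 for 10. Together the members took 0.109%, 0.11% and 0.182% of all counts in AAV-GFP 1 to 3. The AAV-RBM20 libraries gave 0.174%, 0.145% and 0.218%. AAV-GFP 3 thus lay among the AAV-RBM20 libraries.

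**Figure D2:**
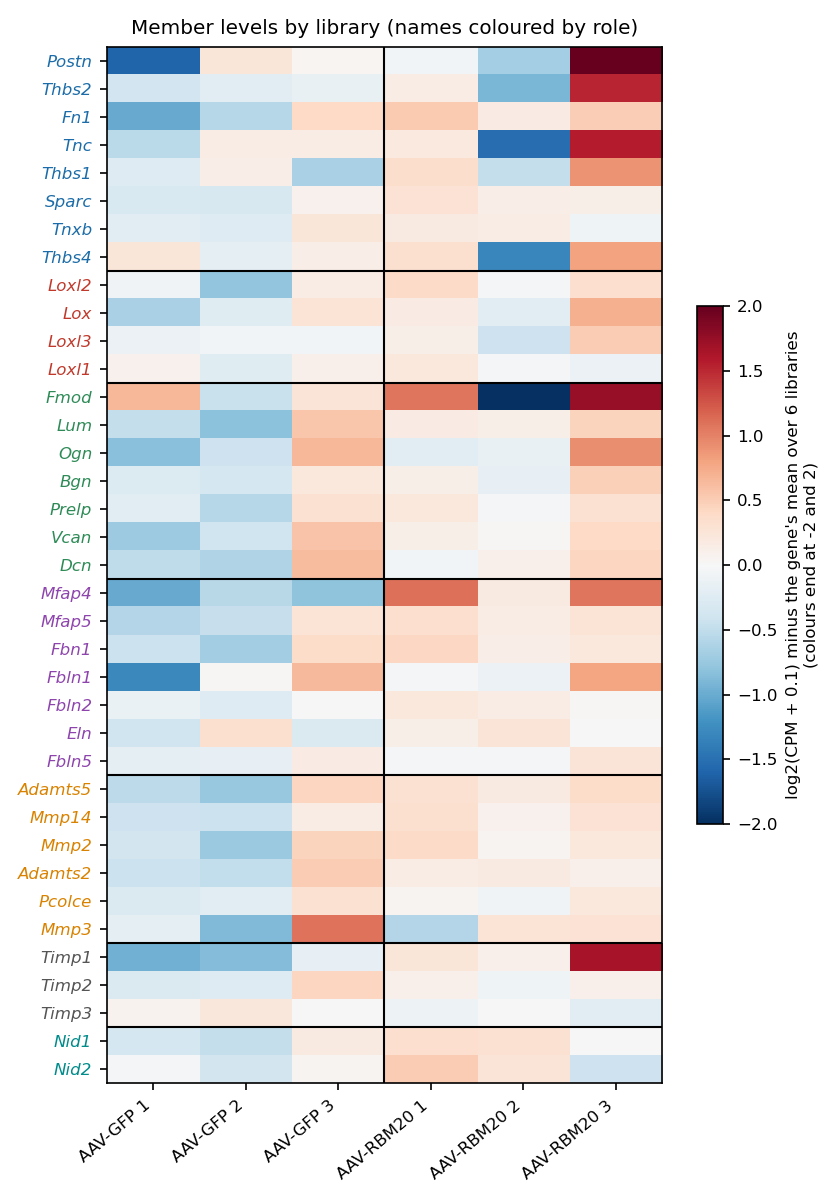
Log2(CPM + 0.1) of each member in each library, minus the member's own mean over the 6 libraries, with rows grouped by role and names in the role's colour. AAV-GFP 1 and 2 are mostly blue (below the mean), and AAV-GFP 3 is mostly red. AAV-RBM20 2 is darkest blue for Fmod, Tnc and Thbs4, where AAV-RBM20 3 is dark red for Fmod and Tnc and paler red for Thbs4.

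Markers of the cells that make matrix varied along with the members in some libraries and not in others. Summed over 10 fibroblast and progenitor markers, the level was 459.9, 406.8 and 858.6 CPM in AAV-GFP 1 to 3 and 627.0, 647.3 and 629.5 CPM in AAV-RBM20 1 to 3. Of these 10 markers, 9 were higher in AAV-RBM20 in pair 1, 9 in pair 2 and 1 in pair 3, and none of the 10 was at 0 in all libraries. The members summed to 1200, 1157 and 1798 CPM in AAV-GFP 1 to 3, so both sums were highest there in AAV-GFP 3. Across AAV-RBM20 1 to 3 the members summed to 1728, 1494 and 1857 CPM while the fibroblast sum was nearly level. Most of that sum was Gsn, at 375.1 to 402.2 CPM in AAV-RBM20 and 590.1 CPM in AAV-GFP 3. Some other markers moved in opposite directions across AAV-RBM20 1 to 3. Ly6a was 14.9, 15.9 and 35.5 CPM, and Col15a1 was 97.5, 92.3 and 65.0 CPM. The level sum therefore does not show that each fibroblast marker was level. The defining marker Pdgfra, the progenitors' growth factor receptor, was 27.5, 23.6 and 41.9 CPM against 38.3, 41.05 and 34.6 CPM. Over 10 macrophage markers the sum was 34.1 to 114.5 CPM in the AAV-GFP libraries and 72.9 to 161.1 CPM in AAV-RBM20, with 10, 10 and 9 of 10 higher in pairs 1, 2 and 3. Myofibre markers summed to 88842 to 96812 CPM in the AAV-GFP libraries and 56542 to 85237 CPM in AAV-RBM20. Of these 8 markers, 6 had negative and 2 positive fitted differences. Mean Myh4 was 36646 CPM in AAV-GFP and 24805 CPM in AAV-RBM20. The positive ones were Myh1, at 7438 and 9978 CPM, and Myh2, at 351 and 594 CPM. Myh2 was 31.6 CPM in AAV-GFP 3. The part of these markers in the members' differences was not tested, and in whole muscle more cells of a type and more RNA per cell cannot be told apart.

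**Figure D3:**
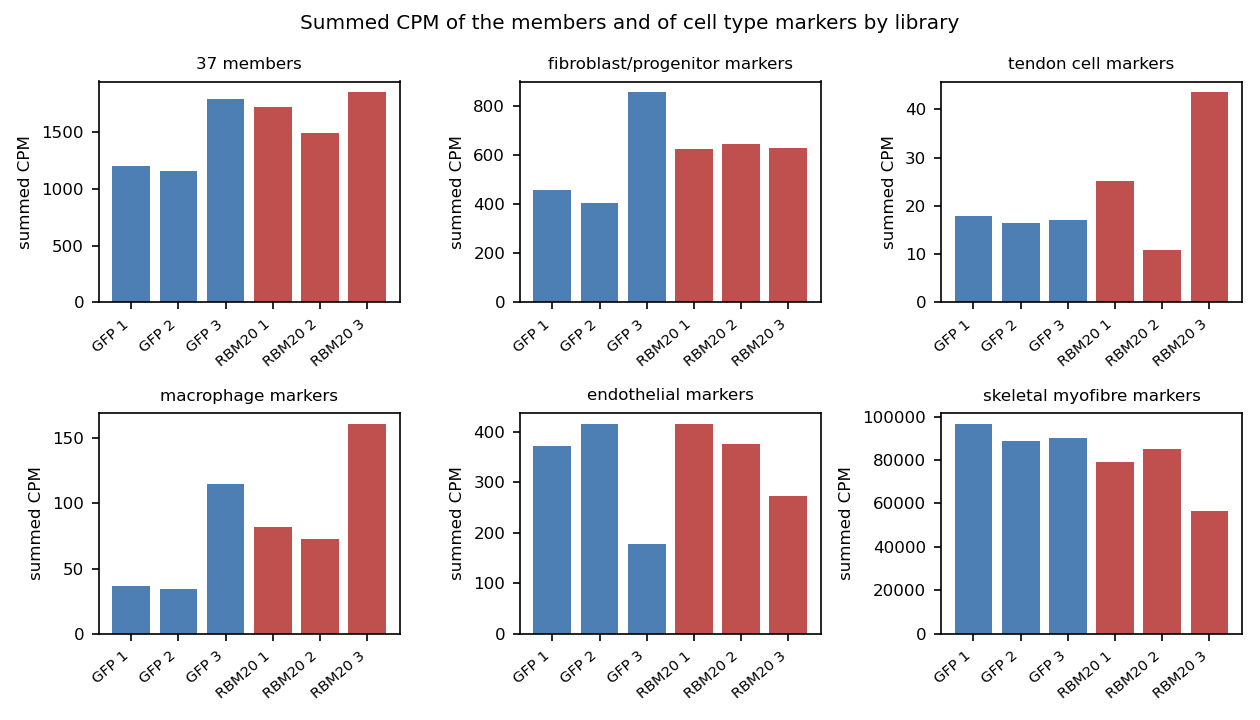
Summed CPM per library for the 37 members and for marker lists of 5 cell types, with AAV-GFP in blue and AAV-RBM20 in red, each panel starting at 0. AAV-GFP 3 has the tallest fibroblast bar (858.6 CPM), the tendon bars of AAV-RBM20 2 and 3 are the lowest and the tallest of that panel (10.7 and 43.6 CPM), and AAV-RBM20 3 has the lowest myofibre bar.

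Among the 8 adhesive and matricellular glycoproteins all fold changes were positive, with a median log2 value of 0.61, and none passed the test. Fn1 (chr1:71585520-71653200, minus strand), which encodes fibronectin, measured 38.4, 51.8 and 101 CPM in AAV-GFP 1 to 3 and 111, 86.4 and 109 CPM in AAV-RBM20 1 to 3. AAV-GFP 3 was above AAV-RBM20 2, so the groups overlapped, but each AAV-RBM20 library was above its same-numbered AAV-GFP library. The means were 63.8 ± 33.1 and 102 ± 13.5 CPM (SD, n = 3), and the log2 fold change was 0.67 ± 0.33 (SE, edgeR adjusted p = 0.642). It was 0.41 without AAV-GFP 1 and 1.17 without AAV-GFP 3.

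Sparc (chr11:55394500-55423183, minus strand), a matricellular protein that binds collagen, measured 119.7, 119.3 and 157.4 CPM in the AAV-GFP libraries and 181.1, 162.6 and 160.2 CPM in AAV-RBM20. The groups did not overlap, but AAV-GFP 3 and AAV-RBM20 3 were close. Its log2 fold change of 0.35 ± 0.15 did not pass the test (edgeR adjusted p = 0.637), and without the libraries numbered 3 it was 0.53 ± 0.07 (edgeR adjusted p = 0.00298). Tnxb, a tenascin linked to collagen architecture, was 0.14 ± 0.17 on the log2 scale over all libraries and 0.41 ± 0.06 without the libraries numbered 3 (edgeR adjusted p = 0.00605).

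The other 5 glycoproteins shared another pattern. Thbs4, a thrombospondin abundant in tendon, measured 74.7, 55.5 and 69.5 CPM in the AAV-GFP libraries and 79.0, 25.5 and 110 CPM in AAV-RBM20. Tnc, tenascin C, measured 4.40, 7.16 and 7.16 CPM against 7.35, 2.16 and 19.3 CPM. Thbs2, which limits matrix assembly and vessel growth, measured 9.25, 10.3 and 10.9 CPM against 13.4, 6.32 and 34.9 CPM. In these 3 genes AAV-RBM20 held both the lowest and the highest of the 6 values. Postn, periostin, reached 44.5 CPM in AAV-RBM20 3 and 3.42 to 12.6 CPM in the other 5 libraries. Thbs1, an activator of latent TGF-beta, reached 19.5 CPM in AAV-RBM20 3 and 6.61 to 13.4 CPM elsewhere. Their log2 fold changes, from 0.10 ± 0.44 for Thbs4 to 1.19 ± 0.74 for Postn, had SEs of 0.34 to 0.74.

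Proteoglycans were all positive too, between 0.21 and 0.67 on the log2 scale with a median of 0.29, and none of the 7 passed the test. Lum (chr10:97565128-97572703, plus strand), lumican, measured 18.2, 14.3 and 37.3 CPM in the AAV-GFP libraries and 28.5, 27.5 and 34.6 CPM in AAV-RBM20. Its highest value was that of AAV-GFP 3. Over all libraries the log2 fold change was 0.38 ± 0.33, and without the libraries numbered 3 it was 0.79 ± 0.11 (edgeR adjusted p = 0.0060). Without AAV-GFP 1 or AAV-GFP 2 alone it was 0.22 or 0.12, and without AAV-GFP 3 alone 0.89.

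Bgn (chrX:73483602-73495933, plus strand), biglycan, measured 35.1, 33.2 and 49.3 CPM against 46.4, 37.9 and 59.1 CPM. Prelp (chr1:133910304-133921414, minus strand), a proteoglycan that anchors basement membrane to collagen, measured 23.6, 18.4 and 33.5 CPM against 31.4, 26.5 and 33.8 CPM. Ogn (chr13:49608046-49624501, plus strand), osteoglycin, measured 11.7, 15.7 and 33.2 CPM against 18.1, 18.7 and 39.8 CPM. Every AAV-RBM20 library was above its same-numbered AAV-GFP library in these 3 genes, while the groups overlapped in each. The log2 fold changes were 0.29 ± 0.21 for Bgn, 0.28 ± 0.22 for Prelp and 0.34 ± 0.44 for Ogn, with edgeR adjusted p values of 0.708, 0.722 and 0.831. In the fit with the replicate block the same values were 0.29 ± 0.09, 0.32 ± 0.12 and 0.38 ± 0.11, with edgeR adjusted p values of 0.18, 0.224 and 0.157. These values depended on single libraries. Ogn turned to -0.13 without AAV-RBM20 3, was 0.06 and 0.18 without AAV-GFP 1 and 2, and 0.51 to 0.90 without each of the other 3 in turn. Bgn was 0.11 without AAV-RBM20 3 and 0.18 without AAV-GFP 2, Prelp was 0.09 without AAV-GFP 2, and without AAV-GFP 3 Bgn was 0.48 and Prelp 0.54.

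Dcn, decorin, had the highest level per length of the proteoglycans and ran from 119.0 to 280.5 CPM in the AAV-GFP libraries and from 173.8 to 242.9 CPM in AAV-RBM20. Vcan, versican, ran from 4.87 to 12.1 CPM and from 8.21 to 10.7 CPM. Both had their highest value in AAV-GFP 3, and both were called without the libraries numbered 3, with log2 fold changes of 0.59 ± 0.07 for Dcn and 0.64 ± 0.14 for Vcan. Fmod, fibromodulin, which is typical of tendon, measured 39.4, 18.2 and 29.6 CPM in the AAV-GFP libraries and 52.2, 2.46 and 83.5 CPM in AAV-RBM20. Its lowest and highest values were both in AAV-RBM20, and its SE of 0.91 was larger than its log2 fold change of 0.67, which was -0.06 ± 1.15 with the replicate block.

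Tendon markers, taken as a sum, were lowest in AAV-RBM20 2 and highest in AAV-RBM20 3, as were Fmod, Tnc and Thbs4. Among the AAV-GFP libraries the sum, Fmod and Thbs4 were highest in AAV-GFP 1, where Tnc was lowest. Their sum over 8 genes was 18.0, 16.4 and 17.0 CPM in the AAV-GFP libraries and 25.0, 10.7 and 43.6 CPM in AAV-RBM20, none of the 8 was at 0 in all libraries, and 7, 1 and 7 of the 8 were higher in AAV-RBM20 in pairs 1, 2 and 3. Tnmd, tenomodulin, a defining tendon gene, was 1.40, 0.98 and 1.54 CPM against 2.16, 0.27 and 4.37 CPM. Scx, another of the 8, was 2.56, 2.64 and 3.38 CPM against 2.77, 1.12 and 3.01 CPM, a log2 fold change of -0.31 ± 0.36. Egr1 gave 7.86 CPM of the sum in AAV-RBM20 2 and was the only marker higher in pair 2. The part of tendon tissue in the members' values was not tested.

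The elastic fibre genes held the member with the smallest adjusted p. Mfap4 (chr11:61485431-61488900, plus strand), a glycoprotein of elastic fibre microfibrils, measured 0.861, 1.22 and 1.01 CPM in AAV-GFP 1 to 3 and 4.07, 2.09 and 3.97 CPM in AAV-RBM20 1 to 3. All AAV-RBM20 libraries lay above all AAV-GFP libraries. The means were 1.03 ± 0.182 and 3.38 ± 1.12 CPM (SD, n = 3), a ratio of 3.28. Its log2 fold change of 1.71 ± 0.32 had an adjusted p of 0.484 in edgeR, 0.0893 with the replicate block, 0.000772 in DESeq2 and 0.0496 in edgeR without the libraries numbered 3. The counts behind these values were 35 to 222 per library. Mapk7 on the opposite strand shares exon bases with Mfap4 and measured 3.46 ± 0.562 and 3.84 ± 0.699 CPM (SD, n = 3), a log2 fold change of 0.15 ± 0.22. The strand setting of the counting was not given in the sources used here, so reads could have been shared between these genes.

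Fbln2 (chr6:91212455-91272540, plus strand), fibulin 2, measured 54.3, 49.9 and 59.4 CPM in the AAV-GFP libraries and 69.0, 65.9 and 60.2 CPM in AAV-RBM20. The groups did not overlap, but the libraries numbered 3 differed little. The log2 fold change was 0.25 ± 0.13 over all libraries (edgeR adjusted p = 0.648) and 0.38 ± 0.07 without the libraries numbered 3 (edgeR adjusted p = 0.0131).

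Fbn1 (chr2:125300594-125507993, minus strand), fibrillin 1, the main microfibril protein, measured 77.4, 64.9 and 134.8 CPM against 139.1, 114.8 and 121.9 CPM. Mfap5 (chr6:122505845-122529290, plus strand), which binds fibrillin, measured 4.60, 5.08 and 8.51 CPM against 8.89, 7.76 and 8.48 CPM. Both were lowest in AAV-GFP 1 and 2, and AAV-GFP 3 lay within the AAV-RBM20 range. Their log2 fold changes were 0.44 ± 0.26 and 0.46 ± 0.24 over all libraries, and 0.84 ± 0.12 and 0.79 ± 0.14 without the libraries numbered 3 (edgeR adjusted p = 0.0222 and 0.0117). Fbn1 was 0.24 without AAV-GFP 2 and Mfap5 was 0.30 without AAV-GFP 1, and without AAV-GFP 3 they were 0.81 and 0.79.

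Eln, elastin itself, was 21.5 ± 6.15 CPM in the AAV-GFP libraries and 24.9 ± 2.27 CPM in AAV-RBM20 (SD, n = 3), with its highest value of 28.5 CPM in AAV-GFP 2. Fbln5, needed for elastic fibre assembly, differed by 0.13 ± 0.16 and Fbln1 by 0.28 ± 0.47 on the log2 scale. None of these 3 was called with or without the libraries numbered 3.

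**Figure D4:**
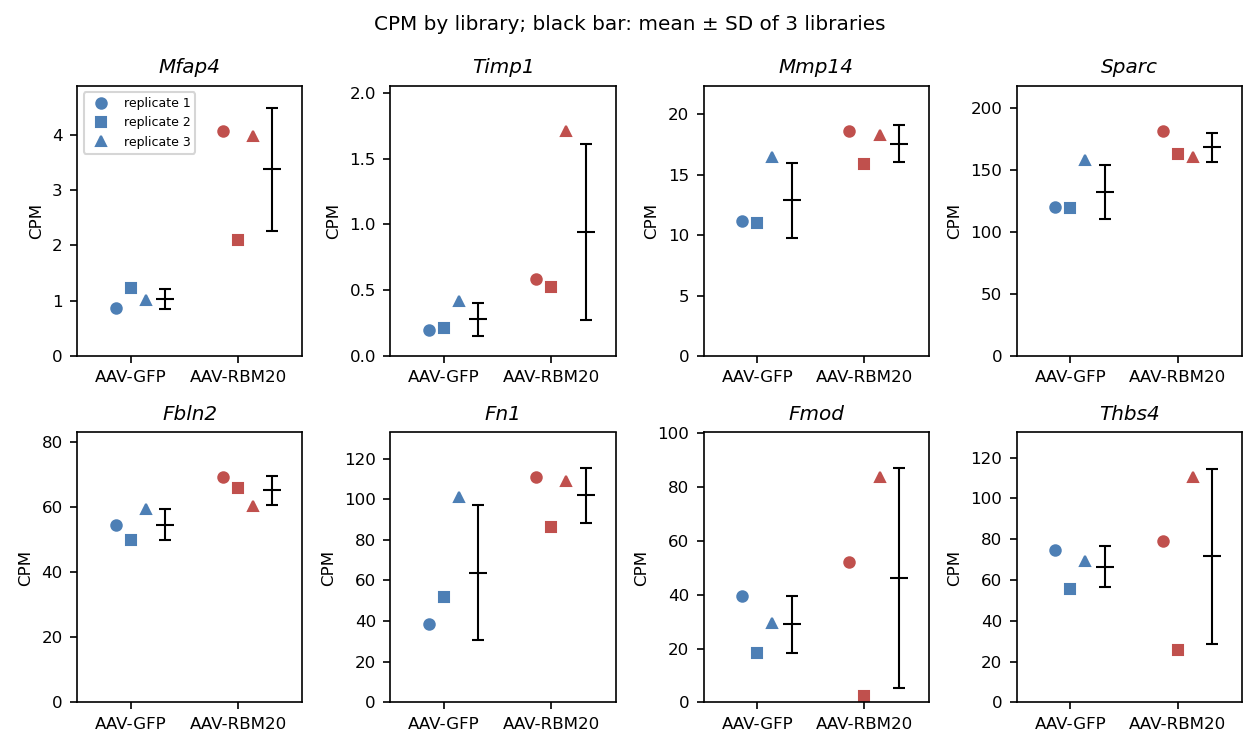
CPM of 8 members in each library (linear axes starting at 0, marker shape gives the replicate number), with the mean ± SD of each group in black. Mfap4, Timp1, Sparc and Fbln2 show no overlap between the groups, AAV-GFP 3 (triangle) sits near AAV-RBM20 in Mmp14 and Fn1, and AAV-RBM20 2 and 3 lie at the extremes in Fmod and Thbs4.

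The lysyl oxidases were positive in all 4 cases, with a median log2 fold change of 0.31, and none passed the test. Lox, the founding member of the family, measured 5.07, 6.76 and 9.69 CPM in the AAV-GFP libraries and 8.98, 6.84 and 13.2 CPM in AAV-RBM20. Loxl2 (chr14:69609068-69695834, plus strand), which crosslinks basement membrane collagen, measured 10.1, 6.06 and 11.8 CPM against 13.8, 10.5 and 13.5 CPM. Each AAV-RBM20 library was above its same-numbered AAV-GFP library for both genes, and the groups overlapped. Log2 fold changes were 0.43 ± 0.30 for Lox and 0.43 ± 0.25 for Loxl2, with edgeR adjusted p values of 0.694 and 0.658. Leaving out 1 library moved Lox to 0.15 without AAV-RBM20 3, 0.23 without AAV-GFP 1 and 0.71 without AAV-GFP 3, and Loxl2 to 0.19 without AAV-GFP 2. Loxl1, tied to elastin, differed by 0.04 ± 0.15 and Loxl3 by 0.19 ± 0.25 on the log2 scale.

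Of the 6 proteases and procollagen processing genes, 5 were positive and 1 negative, with a median log2 fold change of 0.28. Mmp14 (chr14:54431612-54445364, plus strand), a membrane-bound collagenase that activates Mmp2, measured 11.2, 11.0 and 16.5 CPM in the AAV-GFP libraries and 18.6, 15.9 and 18.3 CPM in AAV-RBM20. AAV-GFP 3 was just above AAV-RBM20 2, and otherwise the groups were separate. The log2 fold change of 0.45 ± 0.18 had an edgeR adjusted p of 0.618, and without the libraries numbered 3 it was 0.64 ± 0.11 (edgeR adjusted p = 0.0089). Adamts5 (chr16:85856173-85901828, minus strand), which cuts aggrecan and versican, measured 21.4, 18.1 and 41.2 CPM against 37.9, 34.6 and 39.3 CPM. Its highest library was AAV-GFP 3, and its log2 fold change went from 0.47 ± 0.29 over all libraries to 0.89 ± 0.09 without the libraries numbered 3 (edgeR adjusted p = 0.000978). Without AAV-GFP 2 alone it was 0.25, and without AAV-GFP 3 alone 0.92.

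Mmp2, the gelatinase, ran from 26.9 to 61.2 CPM in the AAV-GFP libraries and from 46.8 to 58.7 CPM in AAV-RBM20. Adamts2, which removes the amino-terminal propeptide of procollagen, was 16.4 ± 6.90 and 18.9 ± 0.513 CPM (SD, n = 3). Pcolce, an enhancer of the enzyme that removes the other propeptide, differed by 0.11 ± 0.18 on the log2 scale. All 3 were highest in AAV-GFP 3. Mmp3, stromelysin 1, had only 6 to 45 counts per library and a log2 fold change of -0.27 ± 0.66, also with its highest value in AAV-GFP 3.

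The 3 metalloproteinase inhibitors differed from one another. Timp1 (chrX:20870166-20874735, plus strand) measured 0.197, 0.216 and 0.418 CPM in the AAV-GFP libraries and 0.587, 0.522 and 1.71 CPM in AAV-RBM20. The groups did not overlap, and AAV-RBM20 3 lay far above the rest. Its log2 fold change was 1.73 ± 0.58 (edgeR adjusted p = 0.618), from 8 to 83 counts per library, and it was 0.99 without AAV-RBM20 3. Timp3 (chr10:86300372-86349506, plus strand), the inhibitor that is bound to matrix, measured 97.5, 109 and 93.7 CPM against 86.5, 94.0 and 80.2 CPM. It was the member that was lower in every pair, with AAV-RBM20 2 just above AAV-GFP 3. The log2 fold change was -0.21 ± 0.13 in the planned fit (edgeR adjusted p = 0.665) and -0.21 ± 0.08 with the replicate block (edgeR adjusted p = 0.252). Timp2, which also takes part in the activation of Mmp2, was 78.0 ± 23.2 and 80.3 ± 6.22 CPM (SD, n = 3), a log2 difference of 0.04 ± 0.21.

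Both nidogens were positive in the planned fit. Nid1 measured 73.4 to 115.8 CPM in the AAV-GFP libraries and 103.3 to 129.2 CPM in AAV-RBM20, and Nid2 measured 12.9 to 17.4 and 12.5 to 23.8 CPM. They were higher in AAV-RBM20 in pairs 1 and 2 and lower in pair 3. AAV-GFP 3 held the highest AAV-GFP value of both genes. Without the libraries numbered 3 both were called, Nid1 at 0.74 ± 0.07 (edgeR adjusted p = 0.000309, the smallest of any member there) and Nid2 at 0.60 ± 0.13 (edgeR adjusted p = 0.0367). These calls depend on that choice of libraries.

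Promoter sequence was read for the 2 members at an unadjusted p under 0.05 that have a RefSeq entry on GRCm38.p6, Mmp14 at chr14:54431348-54431647 and Timp1 at chrX:20869916-20870215, both on the plus strand. Each holds 250 bases before and 50 after the gene start and is shown so that the motifs below can be seen in place; capitals mark the GC box.
Mmp14: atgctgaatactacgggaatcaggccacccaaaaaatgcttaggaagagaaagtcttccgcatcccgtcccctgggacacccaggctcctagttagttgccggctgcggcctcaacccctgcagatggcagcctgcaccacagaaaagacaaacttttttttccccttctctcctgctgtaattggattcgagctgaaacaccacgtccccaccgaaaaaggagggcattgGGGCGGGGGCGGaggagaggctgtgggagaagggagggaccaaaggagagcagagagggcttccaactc
Timp1: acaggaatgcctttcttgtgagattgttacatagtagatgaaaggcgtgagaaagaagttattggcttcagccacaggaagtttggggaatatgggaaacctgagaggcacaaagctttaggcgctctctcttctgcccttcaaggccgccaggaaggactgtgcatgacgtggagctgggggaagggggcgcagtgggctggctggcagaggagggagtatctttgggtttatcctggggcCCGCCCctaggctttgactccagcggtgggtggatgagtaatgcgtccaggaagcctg
The GC box (GGGCGG on either strand), which Sp-family factors bind, began 19 and 13 bases before the start in Mmp14 as a pair of adjoining copies, and 8 bases before the start in Timp1, where it lay on the opposite strand. In all, 23 members had 27 entries. The GC box was in 16 of these 27, and in 35.7% of all 32851 mouse promoter entries. The E-box CACGTG, the element that Bmal1 and its partner bind, was in neither sequence and in 2 of 27 entries, both of Fbln1 and overlapping, against 7.15% of all entries. The AP-1 letters TGANTCA were in 2 entries, of Mmp3 and Tnxb, against 7.81%, and TATAAA was in 6, against 13.6%. Motifs were sought on both strands, and a match describes letters only.

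Levels of different members were compared as CPM per kilobase of merged exon, since CPM alone favours long genes. Merged exon covers all annotated exons of a gene, whether or not they are used in this muscle, so the ranks also depend on the annotation. Sparc was the highest in AAV-GFP at 34.9, followed by Dcn at 30.03, Thbs4 at 20.2, Timp2 at 20.0 and Nid1 at 13.0 CPM per kilobase. At the low end were Mmp3 at 0.239, Timp1 at 0.312, Vcan at 0.532 and Mfap4 at 0.536 CPM per kilobase. The members with the largest fold changes, Mfap4 and Timp1, were thus among the 4 lowest in AAV-GFP, and reached 1.76 and 1.06 CPM per kilobase in AAV-RBM20. Sparc and Dcn stayed first and second in AAV-RBM20 at 44.3 and 34.8 CPM per kilobase. In AAV-GFP, Dcn had a mean of 175 ± 91.1 CPM (SD, n = 3), a relative spread wider than its gap to Sparc, so the order of these neighbours was not resolved in that group.

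**Figure D5:**
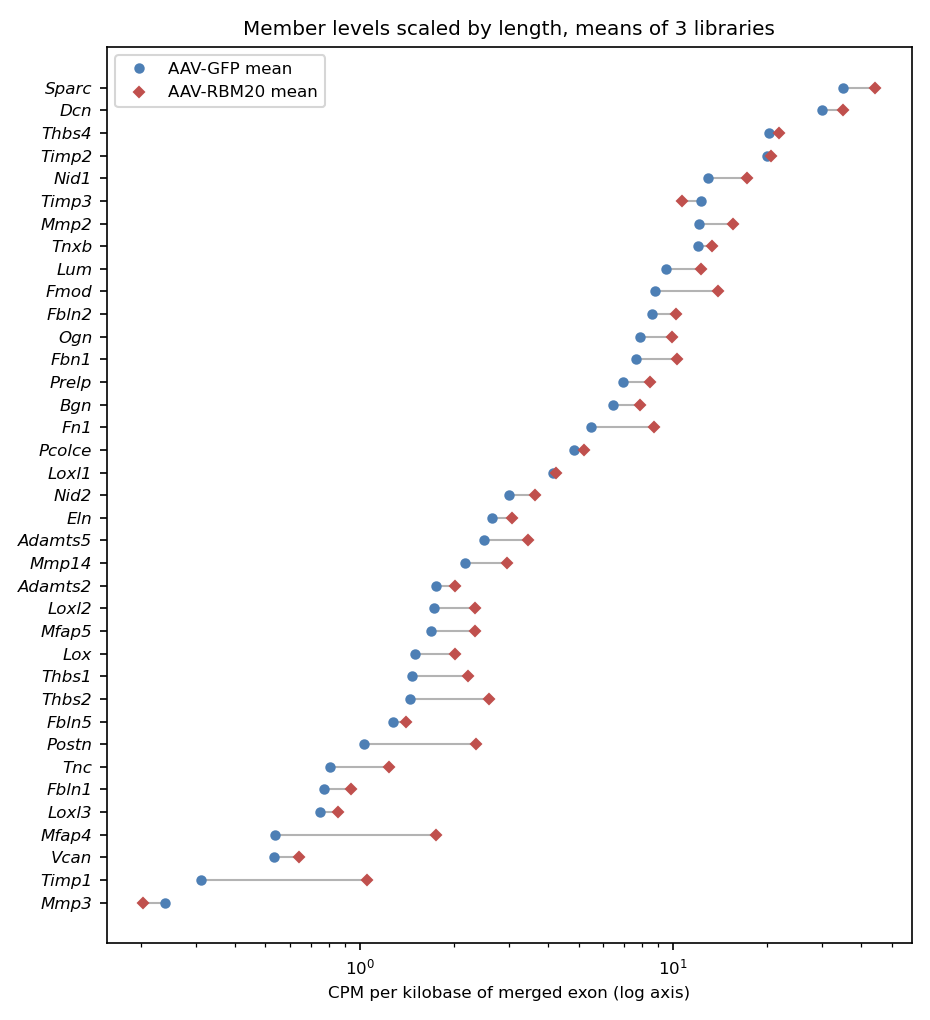
Mean CPM per kilobase of merged exon for each member (log axis), in AAV-GFP (blue circles) and AAV-RBM20 (red diamonds), ordered by the AAV-GFP level, without error bars. The members span from 0.239 (Mmp3) to 34.9 (Sparc) in AAV-GFP, and the longest gaps between the groups are at Timp1 and Mfap4 near the low end.

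A wider list of 98 other matrix genes was read from the same fit, and 96 were tested. Of these, 77 had positive and 19 negative fold changes, with a median log2 value of 0.27, and edgeR called 0 at an adjusted p under 0.05. At an unadjusted p under 0.05, 13 of 96 were higher, against 4.08% of all genes, and 3 were lower, against 3.82%. With the replicate block 26 were higher, against 8.92% of all genes, and 5 lower, against 9.92%. DESeq2 called 2 of them at an adjusted p under 0.05, Cilp and Lamc3, against 0.435% of all genes. Cilp, a glycoprotein of cartilage and connective tissue, measured 47.9, 35.9 and 21.5 CPM in the AAV-GFP libraries and 93.1, 78.7 and 104 CPM in AAV-RBM20. Lamc3, a laminin gamma chain, measured 2.73, 3.76 and 4.60 CPM against 1.69, 1.87 and 1.36 CPM. The groups did not overlap in either gene, Cilp being higher and Lamc3 lower in every pair. The log2 fold changes were 1.39 ± 0.28 for Cilp and -1.18 ± 0.26 for Lamc3, with DESeq2 adjusted p values of 0.00132 and 0.0161 and edgeR adjusted p values of 0.517 and 0.573. Cd44, the hyaluronan receptor, had a log2 fold change of 0.80 ± 0.20, Ctsk, a collagen-cutting cathepsin, 0.82 ± 0.28, and Adamts14, a procollagen propeptidase, 0.76 ± 0.23. Each of these 3 was higher in all AAV-RBM20 than in all AAV-GFP libraries, and none passed the test in edgeR or DESeq2. The 5 named genes were picked for small p values in this same fit, so their separation adds no support. Of the 96 genes, 14 lay without overlap above AAV-GFP, against 7.71% of all genes, and 4 below, against 9.04%.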

How the data were processed

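RNA-seq counts of 6 TA samples were analysed, with groups and replicate numbers taken from the sample titles. The submitters' processing notes name HISAT2, HTSeq, DESeq2 and the build mm10. The counts deposited by the authors are whole reads per Ensembl gene, without normalisation. A second deposited table, the counts divided by a DESeq2 size factor, was not used. Of 55401 identifiers, 55141 matched GENCODE M21 (GRCm38), which gave symbols, positions and exon lengths, and 260 did not. Exon bases of 15 members are shared with another gene, in 2 cases on the same strand. The kit was stranded, but the HTSeq strand setting was not given in the sources used here.

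Groups were compared with the edgeR 4.0.16 quasi-likelihood test in R 4.3.3 (filterByExpr, TMM, robust, no covariate), adjusted by Benjamini-Hochberg over all 17222 genes tested, with a threshold of 0.05. SE is the fold change divided by the square root of F. The script was tested on simulated counts. The simulated libraries were independent and had a fixed dispersion, so that test does not show which changes could be detected in these libraries. Alternatives were DESeq2 1.42.0, limma-voom (limma 3.58.1), other size factors and filters, a replicate block, and leaving out libraries. Log2 ratios within pairs used a prior count of 2. An exact permutation test of 3 against 3 cannot go below 0.1 and was not used. Members, lists and the left-out libraries were chosen with earlier results of these data known.

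Full values were given for members that passed an adjusted or unadjusted 0.05 in the planned or the blocked fit, or whose groups did not overlap. Thbs4, Tnc, Thbs2 and Fmod, chosen after their values were seen, are also given in full, and the others by range or fold change. Deviations from the group mean correlated at 0.42, 0.20 and 0.48 between libraries of the same number and from -0.42 to 0.22 between others, and equal numbers were therefore treated as pairs. The 0.22, between AAV-GFP 2 and AAV-RBM20 1, was above the same-number value of 0.20, and the sample descriptions number AAV-RBM20 differently from the titles. Replicates differed by more than sampling noise, with a chi-square per degree of freedom of 15.1 to 545. Promoters came from RefSeq on GRCm38.p6.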

Additional observations from a re-analysis of the deposited data

How the results depend on the processing

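Of 207 values for the 16 members given in full, over 13 alternatives, 197 kept their direction and side of the threshold, 9 newly passed it and 1 turned, Ogn to -0.13 without AAV-RBM20 3 (its range with 1 library left out was -0.13 to 0.90). The count of all genes called, 0 in the planned fit, was 8 without a filter on low counts, 25 with the replicate block, 75 in DESeq2 and 690 without both libraries numbered 3. The count of members called was 1 in DESeq2 and 14 without the libraries numbered 3, and 0 under every other alternative. Members at an unadjusted p under 0.05, 3 in the planned fit, numbered 5 with a minimum of 1 CPM in 3 libraries (which left 35 members), 5 in DESeq2, 5 in limma-voom, 16 with the replicate block and 24 without the libraries numbered 3. All genes at that threshold numbered 1360 in the planned fit, 3244 with the block and 3196 without the libraries numbered 3. Leaving out 1 library gave 1 to 22 members, with 1 without AAV-GFP 1 (1067 of all genes), 22 without AAV-GFP 3 (2020) and 8 without AAV-RBM20 2 (984). The median member log2 fold change of 0.34 ranged from 0.19 to 0.66 with 1 library left out, the highest being without AAV-GFP 3. Positive members numbered 27 without AAV-RBM20 3, 31 without AAV-GFP 2 and 36 without AAV-GFP 3. Wider matrix genes at an unadjusted p under 0.05, 16 in the planned fit, numbered 31 with the replicate block and 41 without the libraries numbered 3, where the counts of all genes rose as given above. With 1 library left out they numbered 6 to 30, namely 6 without AAV-GFP 1 or without AAV-RBM20 1 (675 of all genes), 10 without AAV-GFP 2 (1400) and 30 without AAV-GFP 3. The replicate block changed no call of a member. The cause of these changes was not tested. Counts of 6 to 83 per library limit Mmp3 and Timp1.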
